A study of Homo sapiens with 12 samples.

Results

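The effect of lenalidomide plus dexamethasone (LenDex) was measured on 8 of the 12 arrays of the series, those of the human multiple myeloma lines labelled RPMI-8226 and JJN3. These arrays were chosen by their cell line label, and the 4 arrays with LenDex were set against the 4 without it, paired by line and by the presence of CPI203, a BET bromodomain inhibitor. The other 4 arrays, of the line labelled ARP1, served for comparison. In each line 1 array was made of cells with CPI203 at 0.01 µM, lenalidomide at 5 µM and dexamethasone at 0.05 µM (Combo), 1 with lenalidomide and dexamethasone at those doses (LenDex alone), 1 with CPI203 alone at that dose, and 1 of control cells, all at 6 h. The time of the arrays with CPI203 alone comes from the treatment protocol, since their titles give none. The series title names the action of lenalidomide under CPI203, and Ikaros and MYC, as its subject. CPI203 was given to both arrays of a Combo and CPI203 pair and to neither array of the other pairs, so the arrays of a pair differ in LenDex. No array had either drug of the LenDex mix without the other, so the effect of lenalidomide and that of dexamethasone cannot be told apart here.

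Dexamethasone binds the glucocorticoid receptor, a transcription factor that moves to the nucleus with its ligand, binds DNA at glucocorticoid response elements and restrains NF-kB and AP-1. In lymphoid cells, glucocorticoids induce a set of direct target genes within hours and can lead to cell death, which is why they are used against myeloma. Lenalidomide binds cereblon, the substrate receptor of a ubiquitin ligase, and directs it to the transcription factors Ikaros (IKZF1) and Aiolos (IKZF3), so its direct action is on proteins and is not read from transcript arrays.

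Several defining markers on these arrays departed from the labels. MS4A1, the B cell antigen CD20, was at log2 levels from 11.48 to 12.06 on the RPMI-8226 arrays and from 11.63 to 11.89 on the JJN3 arrays, against 4.59 to 5.33 on the ARP1 arrays. SDC1, the plasma cell antigen CD138 that defines most myeloma cells, was at 4.96 to 5.38 on the RPMI-8226 arrays and 5.15 to 5.79 on the JJN3 arrays, against 11.78 to 12.26 on the ARP1 arrays. The median level of the 6 B cell markers measured was 10.09 to 11 on the 8 arrays, against 5.2 to 5.56 on the ARP1 arrays. The 8 plasma cell markers were mixed. PRDM1, a factor that drives plasma cell formation, was at 5.09 to 5.58 on the RPMI-8226 arrays and 4.84 to 5.97 on the JJN3 arrays, against 10.96 to 11.55 in ARP1, whereas XBP1 was at 10.27 to 10.66 on the 8 arrays, against 12.72 to 12.79, and MZB1 at 10.13 to 10.61, against 11.88 to 12. IRF4 was at 12.37 to 13.31 on the 8 arrays, above the 11.83 to 12.26 of ARP1. Among T cell genes, CD2 and CD3E lay at 4.63 to 5.18 on all 12 arrays. CD3D was higher on the JJN3 arrays, at 7.33 to 7.68, against 5.05 to 5.39 on the RPMI-8226 arrays and 4.89 to 5.21 on the ARP1 arrays. Levels near 5, as of CD2 and CD3E, are taken as the lower end of the array scale, where a fall cannot be seen and a difference is understated. Across 18239 genes the RPMI-8226 arrays correlated with the JJN3 arrays at Pearson r from 0.968 to 0.983, close to the 0.979 to 0.991 within RPMI-8226 and the 0.982 to 0.991 within JJN3, a description across genes that share these arrays. Among the markers that separated the labels was the fetal haemoglobin gene HBG1, at 6.77 to 8.53 on the RPMI-8226 arrays and 13.19 to 13.32 on the JJN3 arrays, against 12.26 to 12.4 in ARP1. HBZ was at 4.84 to 5.14 on the RPMI-8226 arrays and 9.51 to 9.94 on the JJN3 arrays, against 9.64 to 9.8 in ARP1. KRT18, an epithelial marker, was at 5.28 to 5.97 and 9.07 to 9.32, against 6.51 to 6.92 in ARP1. The JJN3 control array also stood apart in JCHAIN, the immunoglobulin joining chain, at 9.63 against 7.46, 7.80 and 7.71 on the JJN3 arrays with Combo, LenDex and CPI203. RPMI-8226 and JJN3 are therefore used below as names of arrays, and whether they are independent lines was not tested. Counts are also given below with the arrays of both labels averaged, and without the JJN3 pair without CPI203, called the doubted pair because it holds that control array.

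LenDex changed 969 of 13103 genes tested (7.4%), with 547 higher (4.17%) and 422 lower (3.22%) at an adjusted p under 0.05 in limma with the pair as a block. A gene was tested where it reached a log2 level of 5 on at least 4 of the 8 arrays. The differences ranged from -2.41 to 3.77 on the log2 scale, and 107 genes were at least 2-fold higher and 21 at least 2-fold lower. All 969 called genes moved the same way in 4 of 4 pairs, as calls with the pair as a block nearly must, and over all genes tested 2271 were higher and 2009 lower in 4 of 4 pairs. The 4 arrays with LenDex and the 4 without did not overlap for 411 of them, against 819 of all genes tested (6.25%). The median difference was 0.014 over all genes tested. The shares of 4.17% higher and 3.22% lower are the background for each list count below. No list was tested against them, and the lists were chosen with earlier results of these data known. Nothing in the labels says how the cultures were split, so the p-values measure the spread between these arrays. A bulk array cannot tell fewer cells of a type from less RNA per cell.

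The count of calls depended on the pairs. It was 275 without the JJN3 pair without CPI203, which holds the JJN3 control array, 213 without the JJN3 pair with CPI203, 376 without the RPMI-8226 pair without CPI203, and 339 without the RPMI-8226 pair with CPI203. With the RPMI-8226 and JJN3 arrays averaged, treatment by treatment, 406 genes passed, of which 377 were among the 969. Of the 90 named genes that were called, 46 stayed called under all 4 leave-outs, and 15 under none. Those 15 were ACACA, ATF5, AURKA, BCL2A1, CCR7, CD52, CR2, IER2, IL6ST, KIF20A, NR3C1, POLR3B, SLC38A2, TBP and YARS2. A further 18 stayed called under 1 leave-out, namely CCND3, CYSLTR1, DHCR7, DUSP2, FASN, HMGCS1, IL1R1, IL2RB, LTV1, NAPSB, OGFRL1, POLR3E, POLR3G, POLR3K, SLAMF7, SLC7A11, SPIB and VCAM1. The RNA of the RPMI-8226 arrays also moved with treatment in its 3' to 5' signal difference, which was -0.102 and -0.087 for GAPDH with LenDex (Combo, LenDex alone) against -0.152 and -0.216 without it (CPI203, control), and 0.391 and 0.448 for actin with LenDex against 0.226 and 0.274 without it. On the JJN3 arrays it was -0.189 and -0.193 for GAPDH with LenDex, against -0.22 and -0.205 without it, and 0.406 and 0.387 for actin with LenDex, against 0.307 and 0.399 without it. The JJN3 arrays alone gave 234 calls, against 17 from the RPMI-8226 arrays alone. The part of RNA quality in these counts was not tested.

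**Figure D1:**
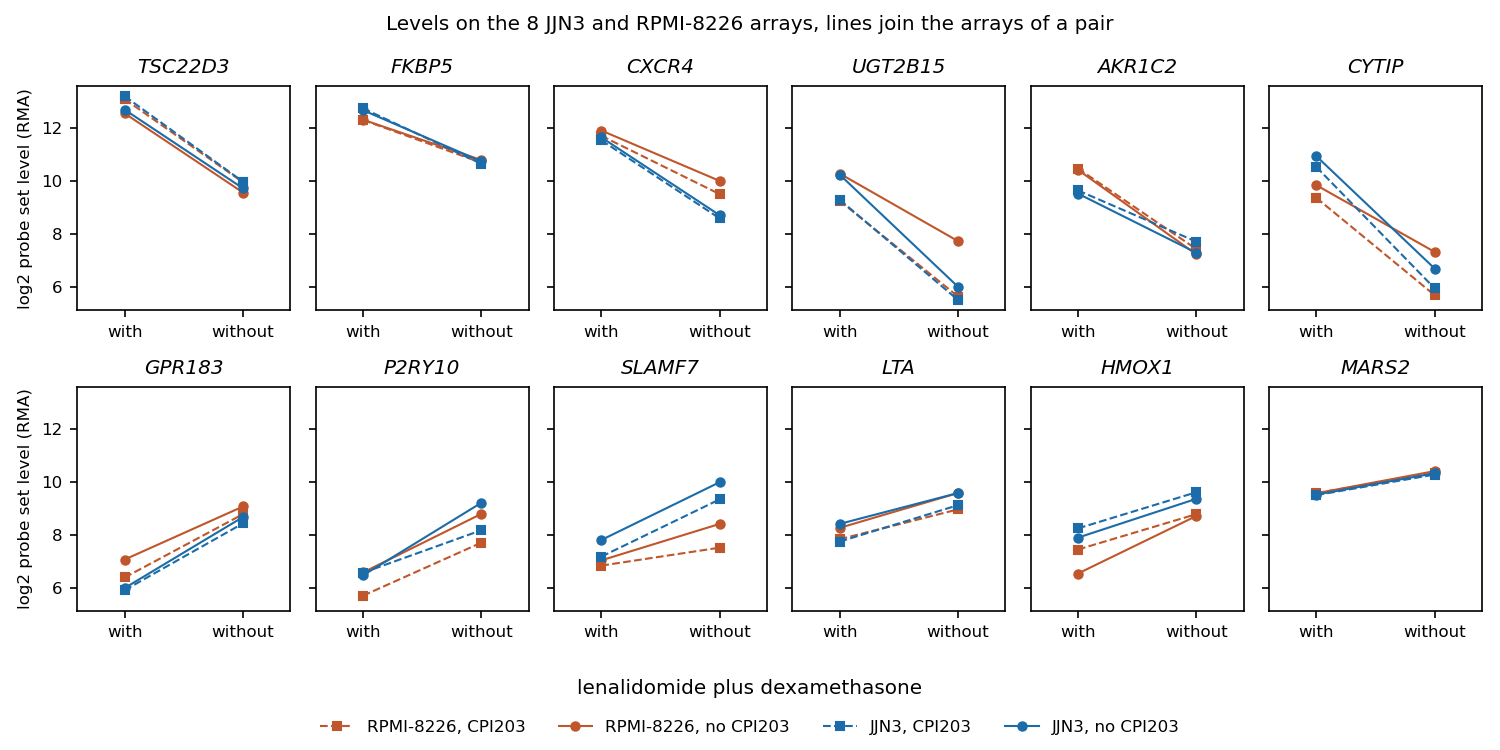
Log2 probe set levels (y axis) of 12 genes on the 8 RPMI-8226 and JJN3 arrays, with (left) and without (right) lenalidomide plus dexamethasone; each line joins the 2 arrays of a pair, with colour for the cell line label and squares with dashed lines for CPI203. The top row holds genes that were higher and the bottom row genes that were lower with LenDex, and within each gene all 4 lines slope the same way.

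Some known target genes of the glucocorticoid receptor rose with LenDex. Of 36 genes listed as glucocorticoid-induced, 30 were tested, 11 rose and none fell, with a median difference of 0.284, against 0.014 over all genes tested. The other 19 were not called. Of the 30, 16 were higher and 3 lower in 4 of 4 pairs. TSC22D3, the glucocorticoid-induced leucine zipper that binds and inhibits NF-kB and AP-1, was at 13.11 and 12.57 on the RPMI-8226 arrays and 13.22 and 12.71 on the JJN3 arrays with LenDex, against 9.96, 9.57, 9.98 and 9.73 without it. In each such list the array with CPI203 (Combo, or CPI203 alone) comes before the array of the same line that lacks it (LenDex alone, or control), and RPMI-8226 before JJN3. The 4 pair differences lay between 2.98 and 3.24, and it rose by 3.09 ± 0.08 on the log2 scale (SE, 8.53-fold, adjusted p = 5.31e-05). FKBP5, a co-chaperone that lowers the affinity of the receptor for its ligand, was at 12.32 and 12.33 on the RPMI-8226 arrays and 12.76 and 12.69 on the JJN3 arrays with LenDex, against 10.70, 10.80, 10.66 and 10.75 without it. The groups did not overlap, and FKBP5 rose by 1.80 ± 0.11 (3.48-fold, adjusted p = 0.00173). CXCR4, the receptor for the chemokine CXCL12 that holds lymphoid cells in bone marrow, was at 11.72 and 11.92 on the RPMI-8226 arrays and 11.55 and 11.66 on the JJN3 arrays with LenDex, against 9.51, 10.01, 8.59 and 8.71 without it. Its levels with LenDex were alike on all 4 arrays, while those without it were lower on the JJN3 arrays, and it rose by 2.51 ± 0.19 (adjusted p = 0.00305).

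Other members of this list rose by less or less evenly. ZFP36L2, an RNA-binding protein that destabilises AU-rich transcripts, was between 11.00 and 11.11 with LenDex, against 9.41 to 9.93 without it, a rise of 1.43 (adjusted p = 0.00306) with no overlap. DDIT4, an inhibitor of mTORC1, was between 12.82 and 13.21 with LenDex, against 11.46 to 12.39 without it, also without overlap, and rose by 1.05 ± 0.12 (adjusted p = 0.0058). PER1, a repressor of the circadian clock, was at 7.68 and 6.58 on the RPMI-8226 arrays and 8.56 and 8.10 on the JJN3 arrays with LenDex, against 6.40, 5.55, 7.33 and 5.44 without it. It rose by 1.55 ± 0.26 (adjusted p = 0.0211), and the pair of JJN3 LenDex alone and control gave 2.65, against 1.28, 1.03 and 1.24 in the others. Its call was lost without either pair with CPI203, and the adjusted p over the 4 leave-outs ran from 0.0135 to 0.0709. NR3C1, the receptor itself, fell slightly: it was between 10.38 and 10.62 with LenDex, against 10.70 to 10.92 without it and fell by 0.35 ± 0.08 (adjusted p = 0.043), and this call was lost without any 1 of the 4 pairs. Of the 16 genes tested for the receptor and its cofactors, FKBP5 alone rose and NR3C1 alone fell (median -0.119). Of 13 clock genes 1 rose (PER1) and 1 fell, BHLHE40, a repressor of clock transcription, which fell by 0.99 ± 0.09 (adjusted p = 0.00345), and the median was -0.006. Leaving out the doubted pair, 9 of the 30 glucocorticoid-induced genes rose, and 9 rose with the lines averaged. The count was 7 without the JJN3 pair with CPI203.

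Among the largest rises were genes of steroid and xenobiotic metabolism. UGT2B enzymes attach glucuronic acid to steroids, AKR1C enzymes reduce ketosteroids, and TIPARP is a mono-ADP-ribosyltransferase induced by the aryl hydrocarbon receptor. Of 24 such genes listed, 15 were tested, 8 rose and none fell (median 0.629, against 0.014 over all genes tested). The list was chosen with earlier results of these data known, so these values describe it and are no independent support. TIPARP is also on the glucocorticoid-induced list. UGT2B15 was at 9.26 and 10.29 on the RPMI-8226 arrays and 9.30 and 10.25 on the JJN3 arrays with LenDex, against 5.63, 7.73, 5.50 and 6.00 without it. The RPMI-8226 control array was above the other 3 arrays without LenDex, yet below all 4 with it, and UGT2B15 rose by 3.56 ± 0.25 (11.8-fold, adjusted p = 0.00235). UGT2B7 and UGT2B17 were likewise highest without LenDex on the RPMI-8226 control array, at 6.35 and 6.24. UGT2B7 rose by 2.66 ± 0.20 (adjusted p = 0.00305) and UGT2B17 rose by 2.64 ± 0.22 (adjusted p = 0.00311), each with no overlap of the groups. Both genes lay between 5.15 and 5.38 on the other 3 arrays without LenDex, near the lower end of the scale, so these differences may be understated. AKR1C2 was at 10.48 and 10.43 on the RPMI-8226 arrays and 9.65 and 9.53 on the JJN3 arrays with LenDex, against 7.43, 7.23, 7.71 and 7.29 without it. It rose by 2.61 ± 0.22 (adjusted p = 0.00311), with the higher levels under LenDex on the RPMI-8226 arrays. AKR1C1 showed the same order, with differences of 3.25 on the RPMI-8226 arrays and 1.67 on the JJN3 arrays and a rise of 2.46 ± 0.32 (adjusted p = 0.0106). UGT2B and AKR1C family members are near-identical in sequence, and probe sets may pick up more than 1 of them. TIPARP rose by 2.63 ± 0.34 (adjusted p = 0.00939), with differences of 1.84 with CPI203 and 3.41 without it. It was at 10.53 and 10.05 on the RPMI-8226 arrays and 11.57 and 11.2 on the JJN3 arrays with LenDex. Without LenDex it was at 8.97, 7.02, 9.44 and 7.41, higher on the arrays with CPI203. Without the doubted pair 6 of these genes rose, and 8 rose with the lines averaged.

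The largest rise of all belonged to CYTIP, a cytohesin-interacting protein that loosens integrin adhesion in lymphocytes and dendritic cells. It was at 9.37 and 9.85 on the RPMI-8226 arrays and 10.54 and 10.95 on the JJN3 arrays with LenDex, against 5.68, 7.32, 5.94 and 6.69 without it. Every array with LenDex was above every array without it, and CYTIP rose by 3.77 ± 0.31 (13.6-fold, adjusted p = 0.00311). Of the 2 CYTIP probe sets tested, 1 was called when probe sets were tested singly. SLITRK6, a transmembrane protein known from neurons, rose by 2.70 ± 0.21, the endoplasmic reticulum transcription factor CREB3L2 rose by 2.32 ± 0.19, and RASSF4, a Ras-association domain protein, rose by 2.21 ± 0.23 (adjusted p = 0.00311, 0.00311 and 0.0052). ARHGAP18 rose by 1.88 ± 0.16 (adjusted p = 0.00311), OGFRL1 by 2.08 ± 0.39 (adjusted p = 0.0291) and NAPSB by 2.26 ± 0.41 (adjusted p = 0.0258). NAPSB and OGFRL1 varied between pairs: the RPMI-8226 pair with CPI203 gave 0.52 for NAPSB, against 2.86 in the RPMI-8226 pair without it, and OGFRL1 averaged 1.12 on the RPMI-8226 arrays and 3.03 on the JJN3 arrays. The calls of NAPSB and OGFRL1 each held in 1 of the 4 leave-outs.

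The promoters of genes that rose, genes that fell and all genes tested were searched for the sequence the glucocorticoid receptor binds. The windows ran from 250 bases before to 50 after the start site in RefSeq (GRCh38.p14), and 23 of the 30 leading genes had an entry. The hexamer searched was AGAACA, or TGTTCT on the other strand, and the palindrome of a pair of such sites was GNACANNNTGTNC, which reads alike on both strands. The hexamer was in 38 of 461 promoters of genes that rose (8.24%), 37 of 357 of genes that fell (10.4%) and 1031 of 10642 over all genes tested (9.69%). The palindrome was in 1, 0 and 28 of these promoters (0.217%, 0% and 0.263%). Among the 30 leading genes the hexamer was found for CYTIP and UGT2B15 and the palindrome for none, and the 1 risen gene with the palindrome was TXNIP, an inhibitor of glucose uptake. A match here is a description of the letters, and receptor binding sites may lie outside these windows. The bases before the start site are printed for these 3 genes, because their windows hold the matches, with the match in capitals.
CYTIP (chr2:157444090-157444339, minus strand): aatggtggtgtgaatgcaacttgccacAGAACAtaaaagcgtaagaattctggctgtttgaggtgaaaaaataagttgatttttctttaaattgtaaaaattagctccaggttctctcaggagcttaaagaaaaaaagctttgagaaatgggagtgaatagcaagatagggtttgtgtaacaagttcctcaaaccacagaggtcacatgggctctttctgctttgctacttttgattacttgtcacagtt
UGT2B15 (chr4:68670653-68670902, minus strand): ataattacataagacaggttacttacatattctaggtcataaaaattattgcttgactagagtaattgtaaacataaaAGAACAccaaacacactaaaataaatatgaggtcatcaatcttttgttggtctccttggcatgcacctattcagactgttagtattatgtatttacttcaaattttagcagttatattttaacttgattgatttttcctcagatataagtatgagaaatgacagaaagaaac
TXNIP (chr1:145996580-145996829, minus strand): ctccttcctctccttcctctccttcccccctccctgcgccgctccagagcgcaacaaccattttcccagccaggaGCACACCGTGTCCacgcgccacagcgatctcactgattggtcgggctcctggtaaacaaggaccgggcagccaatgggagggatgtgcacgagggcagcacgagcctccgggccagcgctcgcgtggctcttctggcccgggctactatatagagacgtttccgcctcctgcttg

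Receptors that steer lymphocytes were among the largest falls, while CXCR4 rose. Of 19 migration receptors tested 2 rose and 4 fell (median -0.114), where 4.17% of all genes tested rose and 3.22% fell. GPR183, the oxysterol receptor that positions B cells in lymphoid follicles, was at 6.38 and 7.06 on the RPMI-8226 arrays and 5.90 and 5.98 on the JJN3 arrays with LenDex, against 8.78, 9.07, 8.43 and 8.67 without it. It fell by 2.41 ± 0.12 (5.31-fold lower, adjusted p = 0.0012) with a gap between the groups. P2RY10, a receptor for lysophosphatidylserine, was at 5.69 and 6.57 on the RPMI-8226 arrays and 6.56 and 6.46 on the JJN3 arrays with LenDex, against 7.70, 8.79, 8.17 and 9.21 without it. It fell by 2.15 ± 0.17 (adjusted p = 0.00311). ACKR3, an atypical receptor that scavenges the CXCR4 ligand CXCL12, was between 7.22 and 7.63 with LenDex, against 8.72 to 9.18 without it and fell by 1.56 ± 0.13 (adjusted p = 0.00311), so that the receptor pair for CXCL12 moved in opposite directions. CCR7, which guides cells into lymph nodes, fell by 0.42 ± 0.08 (adjusted p = 0.0322) with groups that overlapped and higher levels on the arrays with CPI203. Its call was lost without any 1 of the 4 pairs. CYSLTR1, a leukotriene receptor, rose by 1.71 ± 0.28 (adjusted p = 0.0198), with differences of 1.095 with CPI203 and 2.32 without it. With the doubted pair left out 1 receptor rose and 3 fell, and the same counts came with the lines averaged.

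**Figure D2:**
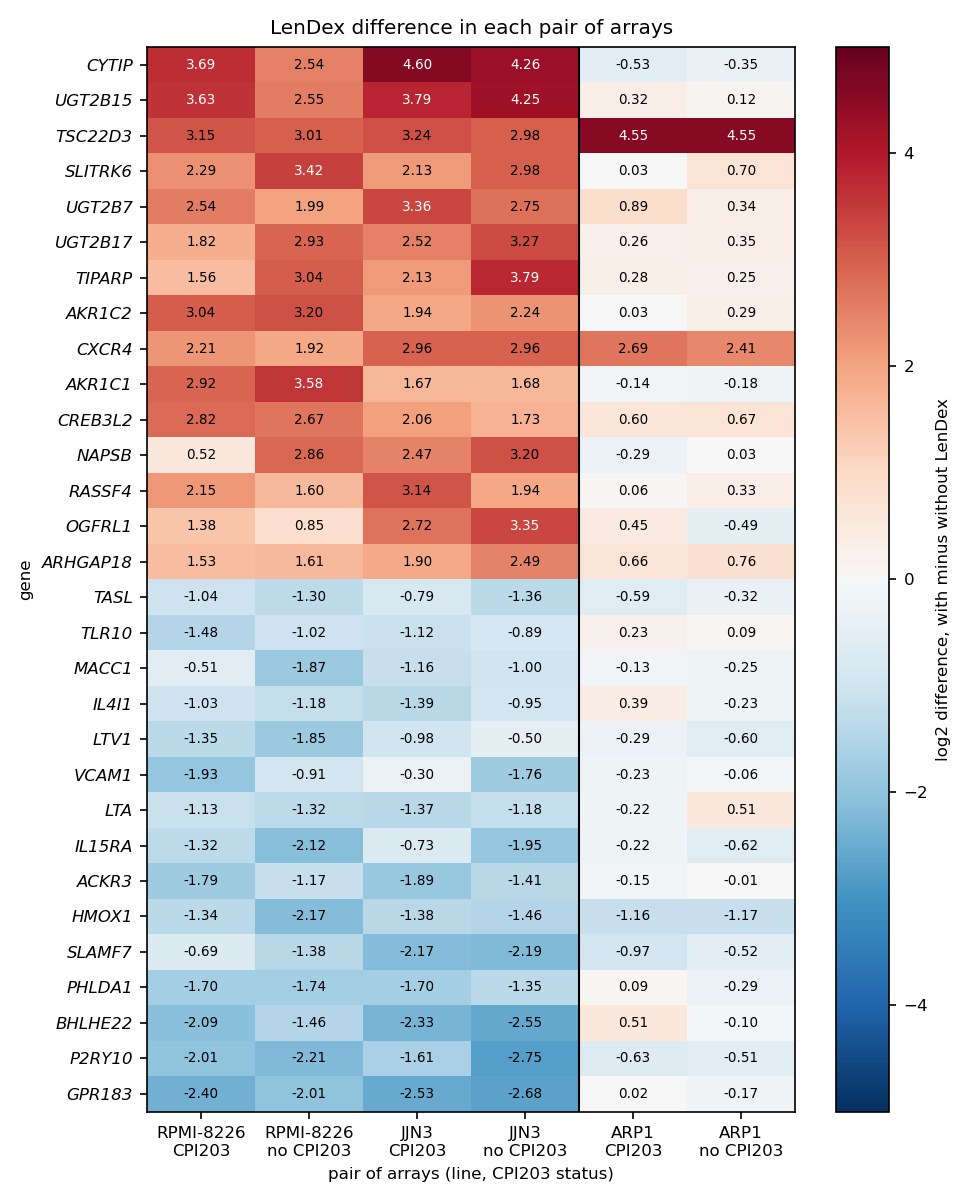
Log2 differences, with minus without LenDex, in each of 6 pairs of arrays (columns) for the 15 largest rises and 15 largest falls among genes called on the RPMI-8226 and JJN3 arrays (rows); colour and number give the difference. The 4 pairs left of the line chose these genes and share a direction by that choice, and in the 2 ARP1 pairs TSC22D3, CXCR4 and HMOX1 moved the same way by 1 or more, while CYTIP was at -0.53 and -0.35.

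Several other leading falls were genes of B cell activation and NF-kB signalling. Of 26 NF-kB targets and regulators tested, 7 fell and 2 rose (median -0.178), where 3.22% of all genes tested fell and 4.17% rose. LTA, the cytokine lymphotoxin alpha, was at 7.83 and 8.26 on the RPMI-8226 arrays and 7.74 and 8.41 on the JJN3 arrays with LenDex, against 8.96, 9.58, 9.12 and 9.58 without it. It fell by 1.25 ± 0.08 (adjusted p = 0.00173), with each pair between -1.37 and -1.13. TRAF1, an adaptor of tumour necrosis factor receptors, fell by 1.05 ± 0.10 (adjusted p = 0.00481), and the activation antigen CD83 fell by 1.05 ± 0.11 (adjusted p = 0.00517), both without overlap of the groups. BCL2A1, a survival gene of the BCL2 family, fell by 0.50 ± 0.08 (adjusted p = 0.0161), with overlap, and lost its call without any 1 of the 4 pairs. The members that rose were inhibitors of the pathway. TNFAIP3, a deubiquitinase that ends NF-kB signalling, was between 12.27 and 12.75 with LenDex, against 11.40 to 12.01 without it and rose by 0.74 ± 0.08 (adjusted p = 0.0052), and TNIP2, which binds it, rose by 1.19 ± 0.12 (adjusted p = 0.0052). In the 3 pairs left without the doubted pair 4 of the 26 fell and 2 rose, as with the lines averaged, and 3 to 5 fell over all 4 leave-outs. Outside this list, TLR10, a Toll-like receptor of B cells, fell by 1.13 ± 0.11 (adjusted p = 0.00475), TASL, an adaptor that activates IRF5 below Toll-like receptors, fell by 1.12 ± 0.11 (adjusted p = 0.00484), and IL4I1, a secreted amino acid oxidase, fell by 1.14 ± 0.10 (adjusted p = 0.00311). VCAM1, an adhesion molecule, fell by 1.23 ± 0.26 (adjusted p = 0.0421) with overlapping groups.

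Surface antigens used as therapy targets moved both ways, 2 of 23 higher and 2 lower (median -0.059), where 4.17% of all genes tested rose and 3.22% fell. SLAMF7, the target of the antibody elotuzumab, was at 6.83 and 7.03 on the RPMI-8226 arrays and 7.17 and 7.80 on the JJN3 arrays with LenDex, against 7.51, 8.41, 9.34 and 9.99 without it. It fell by 1.61 ± 0.25 (3.05-fold lower, adjusted p = 0.0179), with differences of -1.03 on the RPMI-8226 arrays and -2.18 on the JJN3 arrays, and the groups overlapped, the RPMI-8226 arrays without LenDex being lower than those of JJN3. Its call held in 1 of the 4 leave-outs. TNFRSF17, the B cell maturation antigen BCMA, was at 7.03 and 9.83 on the RPMI-8226 arrays and 6.81 and 8.74 on the JJN3 arrays with LenDex, against 5.55, 8.84, 5.52 and 6.98 without it. It rose by 1.38 ± 0.13 (adjusted p = 0.00406), and its levels were lower on arrays with CPI203 than on arrays without it, and the groups overlapped. CD38, the target of daratumumab, stood at -0.08 ± 0.13 (adjusted p = 0.768), at levels of 5.54 to 6.29, not far above the lower end of the scale. Of 21 cytokine receptors 3 rose and 2 fell (median 0.137), against the same shares of all genes. IL15RA, which presents interleukin-15, fell by 1.53 ± 0.22 (adjusted p = 0.0145), and IL2RB fell by 0.65 ± 0.11 (adjusted p = 0.024). IL4R rose by 0.74 ± 0.09 (adjusted p = 0.00752), IL1R1 rose by 1.23 ± 0.22 (adjusted p = 0.0243), and IL6ST, the shared signalling chain of the interleukin-6 receptor family, rose by 0.46 ± 0.08 (adjusted p = 0.0253).

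Of 21 transcription factors of B and plasma cells, 2 fell and 1 rose (median -0.053), where 3.22% of all genes tested fell and 4.17% rose. MEF2C, which acts in B cell proliferation, fell by 1.07 ± 0.10 (adjusted p = 0.00345), SPIB, an ETS factor of germinal centre B cells, fell by 0.61 ± 0.12 (adjusted p = 0.0307), and EBF1, a factor that specifies B cells, rose by 0.65 ± 0.08 (adjusted p = 0.00752). Among 17 genes of the cereblon ligase and its substrates, only IKZF2 (Helios), an Ikaros family member, passed: it was at 7.81 and 8.93 on the RPMI-8226 arrays and 7.08 and 7.94 on the JJN3 arrays with LenDex, against 8.87, 9.66, 8.18 and 9.07 without it and fell by 1.01 ± 0.09 (adjusted p = 0.00396). Its groups overlapped, with lower levels on the arrays with CPI203, and each pair lay between -1.13 and -0.74. The transcripts of the lenalidomide substrates did not pass. The difference was -0.24 ± 0.11 for Aiolos, IKZF3 (adjusted p = 0.261), and -0.24 ± 0.13 for Ikaros, IKZF1 (adjusted p = 0.314). CRBN itself stood at 0.04 (adjusted p = 0.898), IRF4, a survival factor of myeloma cells, at 0.05 (adjusted p = 0.804), and MYC at -0.27 ± 0.09 (adjusted p = 0.126), lower in 4 of 4 pairs. BHLHE22, a basic helix-loop-helix repressor known from neurons, fell by 2.11 ± 0.17 (adjusted p = 0.00311).

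**Figure D3:**
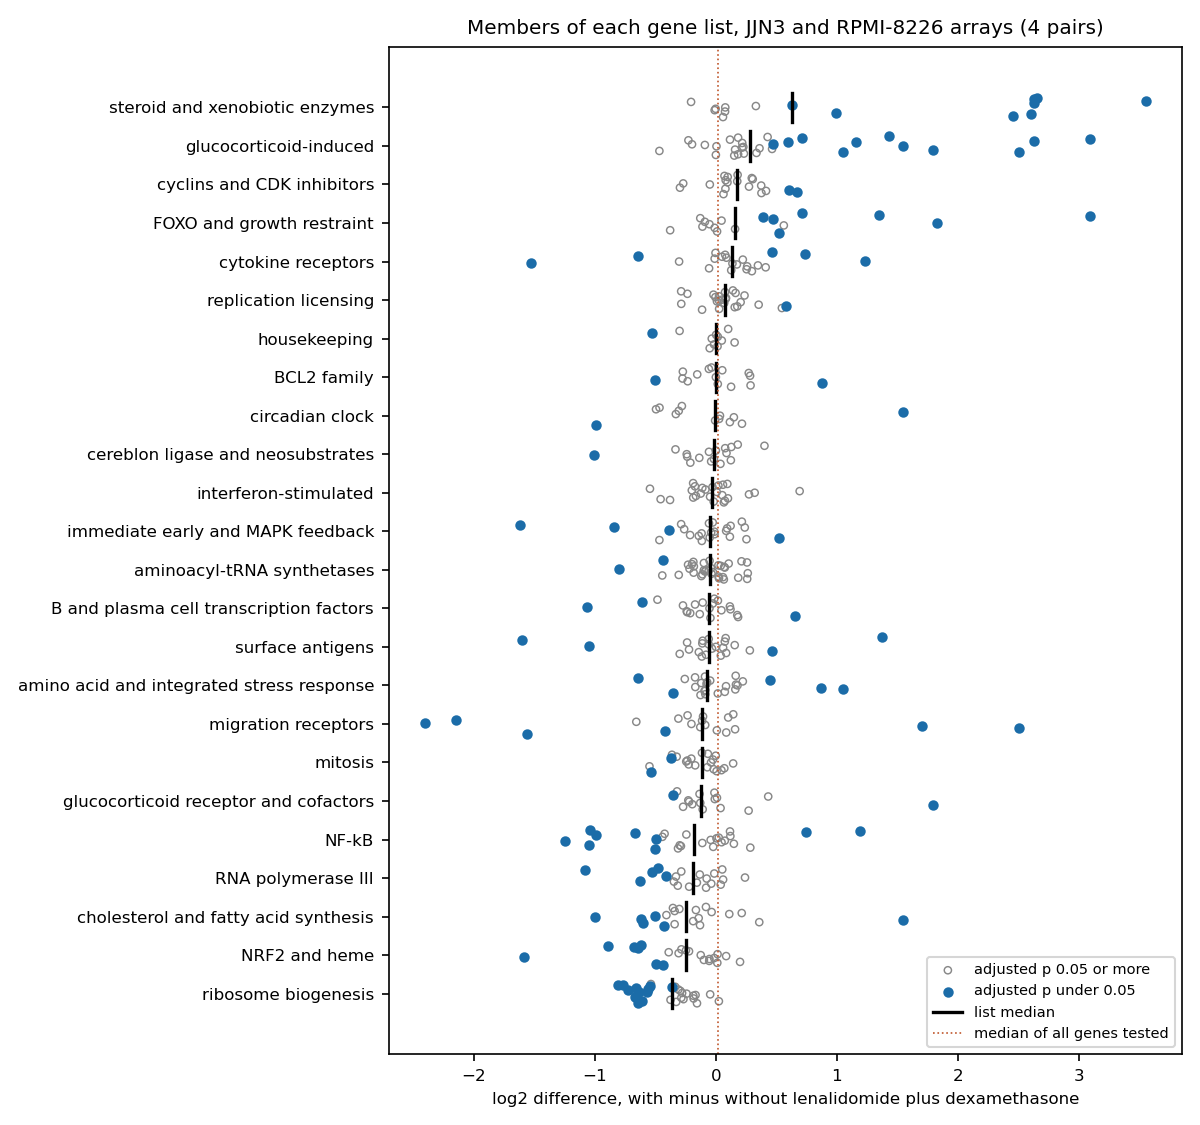
Log2 differences, with minus without LenDex (x axis), of the tested members of each gene list (rows) on the RPMI-8226 and JJN3 arrays; filled points passed an adjusted p under 0.05, black bars are list medians and the dotted line is the median of all genes tested. The median was highest for steroid and xenobiotic enzymes, at 0.629, and lowest for ribosome biogenesis, at -0.366. The lists were chosen with earlier results of these data known.

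Among genes of ribosome biogenesis, falls outnumbered rises. Of 29 ribosome biogenesis genes 13 fell and none rose, with a median of -0.366, and 23 were lower in 4 of 4 pairs, against 2009 of all 13103 genes. WDR3, a component of the small-subunit processome, was between 8.58 and 9.03 with LenDex, against 9.32 to 9.93 without it and fell by 0.81 ± 0.08 (adjusted p = 0.0052). WDR43 fell by 0.77 ± 0.09 (adjusted p = 0.00752), RRS1 fell by 0.66 ± 0.08 (adjusted p = 0.0089), and POLR1B, a subunit of RNA polymerase I, fell by 0.64 ± 0.08 (adjusted p = 0.00752). LTV1, an export factor of the small ribosomal subunit outside that count, fell by 1.17 ± 0.20 (adjusted p = 0.024). Of 20 RNA polymerase III genes 5 fell (median -0.189), with POLR3G at -1.08 ± 0.21, POLR3E at -0.53 ± 0.07, POLR3K at -0.48 ± 0.09 and POLR3B at -0.41 ± 0.08 (adjusted p from 0.0131 to 0.036). Of 35 aminoacyl-tRNA synthetases 2 fell and none rose (median -0.052), a share close to the 3.22% of all genes that fell. MARS2, the mitochondrial methionyl-tRNA synthetase, was between 9.50 and 9.58 with LenDex, against 10.28 to 10.41 without it, with each pair between -0.85 and -0.75, and fell by 0.80 ± 0.07 (adjusted p = 0.00368), while YARS2 fell by 0.44 ± 0.10 (adjusted p = 0.0471). Leaving out the doubted pair, the counts that fell were 8 for ribosome biogenesis and 0 for RNA polymerase III, and with the lines averaged 9 and 1. Over all 4 leave-outs they ran from 5 to 8 and from 0 to 2, and 5 ribosome biogenesis genes fell without the JJN3 pair with CPI203.

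Of 21 genes of oxidative stress and heme metabolism, 7 fell and none rose (median -0.247). The 7 were ALAS1, BACH1, HMOX1, SLC7A11, SQSTM1, SRXN1 and TXNRD1. HMOX1, the enzyme that breaks down heme, was at 7.44 and 6.53 on the RPMI-8226 arrays and 8.24 and 7.89 on the JJN3 arrays with LenDex, against 8.78, 8.71, 9.61 and 9.36 without it. It fell by 1.59 ± 0.15 (3.01-fold lower, adjusted p = 0.00406), most in the RPMI-8226 pair without CPI203. SRXN1 fell by 0.89 ± 0.10, SQSTM1 fell by 0.68 ± 0.07 and TXNRD1 fell by 0.62 ± 0.08, all targets of the transcription factor NRF2 (adjusted p = 0.00672, 0.0052 and 0.00845). SLC7A11, the cystine transporter, fell by 0.65 ± 0.11 (adjusted p = 0.0207). Without the doubted pair 4 of the 21 fell, and with the lines averaged 5, with 3 to 6 over all 4 leave-outs. Of 25 genes of amino acid and integrated stress responses 3 rose and 2 fell (median -0.072), where 4.17% of all genes tested rose and 3.22% fell. JDP2, a repressor of AP-1, rose by 0.87 ± 0.09, SLC38A2, an amino acid transporter, rose by 0.45 ± 0.07, and ATF5 fell by 0.36 ± 0.08 (adjusted p = 0.0052, 0.0191 and 0.04). Of 20 genes of cholesterol and fatty acid synthesis 5 fell and 1 rose (median -0.245), against the same shares of all genes. HMGCS1, an early enzyme of cholesterol synthesis, fell by 0.999 ± 0.18 (adjusted p = 0.0253), FASN, the fatty acid synthase, fell by 0.62 ± 0.11 (adjusted p = 0.024), and DHCR7 and ACACA stood at -0.60 and -0.43 (adjusted p = 0.043 and 0.0362). The riser, FAR2, reduces fatty acids to alcohols (1.55 ± 0.15, adjusted p = 0.00414). None of the 5 falls held without the JJN3 pair with CPI203, or without either RPMI-8226 pair.

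Of 17 genes of FOXO signalling and growth restraint 7 rose and none fell (median 0.159), and this list shares TSC22D3, TXNIP and SESN1 with the glucocorticoid-induced genes. KLF6, a zinc finger factor, was between 11.08 and 11.82 with LenDex, against 9.18 to 10.19 without it and rose by 1.83 ± 0.10 (adjusted p = 0.00124). TSPYL2, a nucleosome assembly protein that restrains the cell cycle, rose by 1.35 ± 0.14 (adjusted p = 0.00517), and TXNIP rose by 0.72 ± 0.09 (adjusted p = 0.0102). With the doubted pair left out 4 of the 17 rose, and 4 with the lines averaged, with 3 to 4 over all 4 leave-outs. Of 19 cyclins and inhibitors of their kinases 2 rose, CCND3 at 0.67 ± 0.13 and CCNE2 at 0.60 ± 0.08 (adjusted p = 0.0325 and 0.0097, list median 0.177). CDKN1A, the kinase inhibitor p21, stood at 0.38 ± 0.10 (adjusted p = 0.0791), higher in 4 of 4 pairs, and CCND2 at 0.38 ± 0.12 (adjusted p = 0.105). When probe sets were tested singly, 1 of 3 for CCND2 was called higher. Of 24 replication licensing genes GINS3 rose (0.58 ± 0.08, adjusted p = 0.0125, list median 0.072), and of 21 mitosis genes AURKA and KIF20A fell, by 0.53 ± 0.09 and 0.37 ± 0.07 (adjusted p = 0.0194 and 0.035, list median -0.115). Over all genes tested 4.17% rose and 3.22% fell, and none of these lists was tested against those shares.

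Of 15 BCL2 family genes BBC3, the pro-apoptotic protein PUMA, rose by 0.88 ± 0.13 (adjusted p = 0.0135) without overlap of the groups, and BCL2A1 fell, as above (list median 0). BCL2L11, the pro-apoptotic protein BIM, stood at 0.00 ± 0.12 (adjusted p = 0.999) and MCL1 at -0.06 ± 0.08 (adjusted p = 0.719). Of 24 immediate early and MAP kinase feedback genes 3 fell and 1 rose (median -0.045). PHLDA1 was between 9.13 and 9.88 with LenDex, against 10.71 to 11.58 without it and fell by 1.62 ± 0.09 (adjusted p = 0.00141), JUNB, an AP-1 subunit, fell by 0.84 ± 0.13 (adjusted p = 0.0168), and IER2 fell by 0.39 ± 0.08 (adjusted p = 0.04). The phosphatase DUSP2 rose by 0.52 ± 0.08 (adjusted p = 0.0147), whereas DUSP1, a common glucocorticoid target, stood at -0.47 ± 0.17 (adjusted p = 0.156). None of 25 interferon-stimulated genes passed in limma, with 6 at an unadjusted p under 0.05 (median -0.028), and after cyclic loess 2 rose and 1 fell. Those with the smallest p were OAS1 at -0.55 ± 0.13 (adjusted p = 0.0511) and IRF9 at 0.32 ± 0.08 (adjusted p = 0.0538). Of 11 housekeeping genes TBP, the TATA-binding protein, fell by 0.53 ± 0.11 (adjusted p = 0.0377, list median 0.002). MACC1, a regulator of MET, fell by 1.14 ± 0.20 (adjusted p = 0.0248).

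Markers of other cell types showed few changes with LenDex. Of 6 B cell markers CR2, the complement receptor CD21, fell by 0.48 ± 0.10 (adjusted p = 0.0397), and of 8 plasma cell markers TNFRSF17 rose, as above. Among 7 erythroid, 3 T cell, 3 monocyte, 3 fibroblast and 4 epithelial markers tested none passed in limma, with 3 of these 20 at an unadjusted p under 0.05. The summed linear level of the B cell markers was 7970 to 11000 with LenDex and 8310 to 12500 without it. KLF1, an erythroid factor, followed CPI203 on the JJN3 arrays, at 5.61 and 5.99 with CPI203 (Combo, CPI203 alone) and 8.32 and 8.34 without it (LenDex alone, control).

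No gene passed the test of a difference between the LenDex effect with and without CPI203. The difference was called for 0 of 13103 genes in limma (0%), with 995 at an unadjusted p under 0.05 and a smallest adjusted p of 0.418, and for 172 with a variance trend. In simulated data with 200 genes changed, this test recovered 0% of 2-fold and 82% of 3-fold differences, so 2-fold ones were not detectable there. In the data even the CALD1 difference of -2.415 ± 0.158 did not pass in limma (adjusted p = 0.418). The count of 0 therefore does not show that 3-fold differences are absent. Across all genes tested the effects with and without CPI203 correlated at Pearson r 0.656, a description over genes of the same 8 arrays. The median size of the effect among the 969 called genes was 0.521 with CPI203 and 0.588 without it. TIPARP was among the 6 genes with the smallest p, at 1.84 with CPI203 and 3.41 without it, a difference of -1.57 ± 0.15 (adjusted p = 0.656). Its level was higher with CPI203 alone (8.97 and 9.44) than in control (7.02 and 7.41, RPMI-8226 before JJN3). With LenDex it was also not lower under CPI203, at 10.53 and 11.57 with Combo against 10.05 and 11.2 with LenDex alone. CALD1, which encodes the actin-binding protein caldesmon, had 0.34 with CPI203 and 2.76 without it, and SLC38A4 had 0.16 with CPI203 and 1.75 without it. ADAMTS9 had 0.13 with CPI203 and 1.77 without it. ADGRG2 had 1.95 with CPI203 and 0.19 without it, and PLEKHG1 had 0.24 with CPI203 and -1.09 without it. With CPI203 alone PLEKHG1 was already at 5.3 and 5.46, against 7.21 and 6.99 in control (RPMI-8226 before JJN3). That is near the lower end of the scale, where a fall could hardly be seen. None of these 6 differences passed (adjusted p from 0.418 to 0.656).

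**Figure D4:**
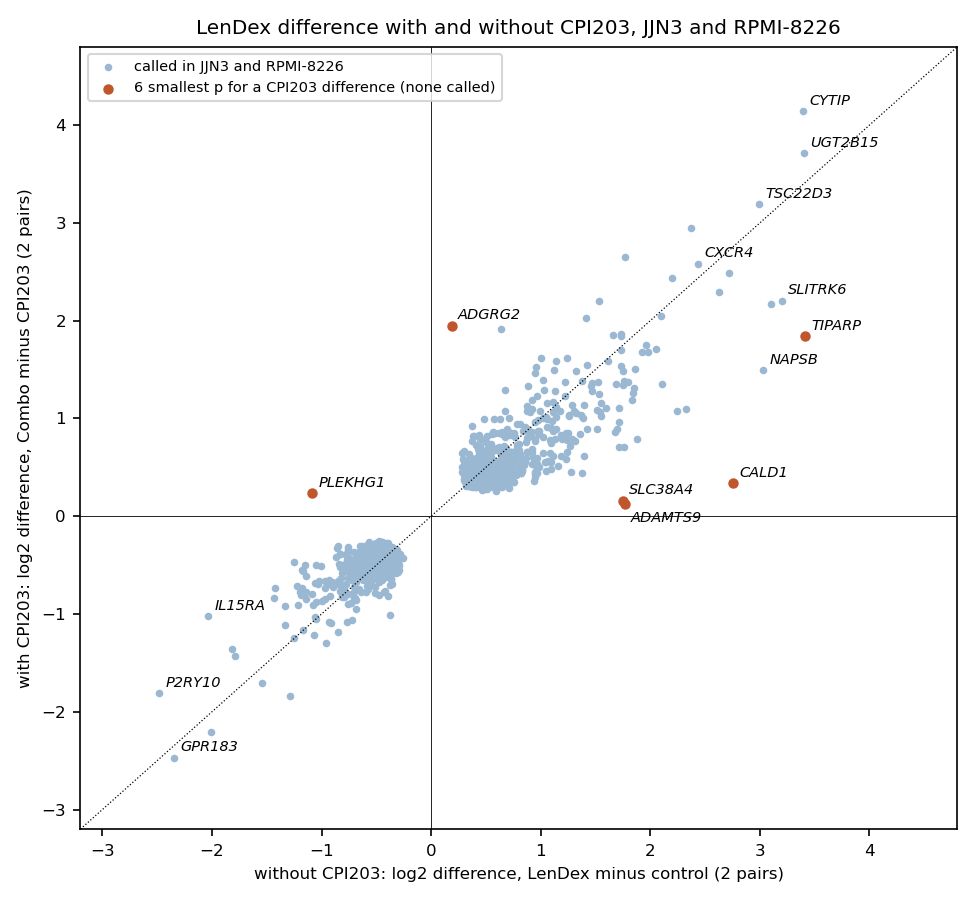
Log2 LenDex differences with CPI203 (y axis, mean of 2 pairs) against those without CPI203 (x axis, mean of 2 pairs) on the RPMI-8226 and JJN3 arrays; blue points are the 969 called genes, orange points the 6 genes with the smallest p for a difference, none of which was called, and the dotted line marks equal values. The called genes were chosen on the mean of both axes, and most lie near the line, with TIPARP at 1.84 and 3.41 below it.

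The effect was next compared between the labels. The difference, RPMI-8226 minus JJN3, was called for 0 of 13103 genes in limma (0%), with 1302 at an unadjusted p under 0.05 and a smallest adjusted p of 0.486, and for 385 with a variance trend. The test recovered 0% of 2-fold and 84.5% of 3-fold differences in simulated data with 200 genes changed. In the data even the ZNF682 difference of 2.466 ± 0.169 was not called, so the count of 0 does not show that 3-fold differences are absent. The median size of the effect over the 969 called genes was 0.552 on the RPMI-8226 arrays and 0.54 on the JJN3 arrays. The smallest p-values belonged to ZNF682, at 2.21 on the RPMI-8226 arrays and -0.26 on the JJN3 arrays, GRAMD4, at -0.16 on the RPMI-8226 arrays and 1.32 on the JJN3 arrays, and RND3 at 1.37 on the RPMI-8226 arrays and 0.05 on the JJN3 arrays. RADX, a protein of replication forks, was at 0.22 on the RPMI-8226 arrays and 1.80 on the JJN3 arrays. KLF9, a known glucocorticoid target, was at -0.29 on the RPMI-8226 arrays and 1.01 on the JJN3 arrays, and TBC1D8B at 0.04 on the RPMI-8226 arrays and 1.65 on the JJN3 arrays. None of these 6 differences passed (adjusted p = 0.486 for each).

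The effect differed from that on the ARP1 arrays for 118 of 13103 genes (0.901%), 66 with a higher and 52 with a lower value than in ARP1, as tested in limma over all 12 arrays. Of these 118, 51 had risen and 13 had fallen on the RPMI-8226 and JJN3 arrays and moved less or the other way in ARP1, 8 had risen there but rose more in ARP1, and 46 were not called there. CYTIP stood at 3.77 on these arrays and -0.44 on the ARP1 arrays, a difference of 4.21 ± 0.50 (adjusted p = 0.015). UGT2B15 stood at 3.56, against 0.22 in ARP1 (3.34 ± 0.41, adjusted p = 0.015), and UGT2B7, UGT2B17 and AKR1C2 differed by 2.05 ± 0.35, 2.33 ± 0.36 and 2.44 ± 0.36 (adjusted p = 0.0471, 0.035 and 0.0297). In ARP1 CYTIP lay at 9.02 to 9.62, UGT2B15 at 4.55 to 4.9 and AKR1C2 at 5.03 to 5.36. For the falls the difference says little of the response, because 12 of the 13 genes were under a level of 6 on all 4 ARP1 arrays, where a fall could hardly be seen. GPR183 lay at 4.65 to 4.88 in ARP1, BHLHE22 at 4.57 to 5.34, PHLDA1 at 4.84 to 5.18, LTA at 4.42 to 5.29 and IKZF2 at 4.98 to 5.46. GPR183 stood at -2.41, against -0.07 in ARP1 (-2.34 ± 0.20, adjusted p = 0.00458), BHLHE22 at -2.11 against 0.21, PHLDA1 at -1.62 against -0.10, and LTA at -1.25 against 0.15. IKZF2 stood at -1.01 here and 0.33 in ARP1 (-1.33 ± 0.15, adjusted p = 0.0134).

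TSC22D3, DDIT4, ZBTB16 and GLUL had a smaller LenDex effect than in ARP1. TSC22D3 rose by 3.09 here, against 4.55 in ARP1 (-1.46 ± 0.13, adjusted p = 0.00535). In ARP1 it started lower, at 7.53 and 7.59 without LenDex, against 9.57 to 9.98 here. With LenDex it was at 12.09 and 12.14 in ARP1, still below the 12.57 to 13.22 here. DDIT4 rose by 1.05 here, against 2.51 in ARP1 (-1.46 ± 0.19, adjusted p = 0.0182). ZBTB16, a zinc finger repressor induced by glucocorticoids in many tissues, was between 4.97 and 5.25 with LenDex and between 4.74 and 5.17 without it, near the lower end of the array scale, and stood at 0.18 here and 3.24 in ARP1 (-3.06 ± 0.19, adjusted p = 0.00136). GLUL, the glutamine synthetase, stood at 0.58 against 2.79 (-2.21 ± 0.14, adjusted p = 0.00153). CD160, SNX30, SPAG4 and NUDT16 stood at -0.08, 0.12, -0.03 and 0.31 here, none of them called, against 3.39, 2.36, 2.61 and 2.24 in ARP1, with adjusted p-values of the difference from 0.00132 to 0.00205. CD160, SNX30 and SPAG4 lay between 4.59 and 5.38 on all 8 arrays, at the lower end of the scale, while NUDT16 lay between 6.61 and 7.55. When probe sets were tested singly, 1 of 3 for NUDT16 was called higher on the 8 arrays. Of the 46 genes not called here, 21 were under a level of 6 on all 8 arrays. For CXCR4 the difference was -0.04 ± 0.31 (adjusted p = 0.971) and for FKBP5 -0.21 ± 0.18 (adjusted p = 0.692). The count of 118 fell to 9 without the ARP1 pair without CPI203 and to 11 without the ARP1 pair with CPI203, and was 47 with the RPMI-8226 and JJN3 arrays averaged.

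Many of these genes moved the same way on the ARP1 arrays. Of the 422 genes that fell here, 323 (76.5%) were lower in both ARP1 pairs, against 35.2% of all genes tested, and their median in ARP1 was -0.27. Of the 547 that rose, 281 (51.4%) were higher in both ARP1 pairs, against 26.8% of all genes tested, with a median of 0.123 in ARP1. The ARP1 arrays did not enter the choice of these genes, and these shares are given without a test. The median of the ribosome biogenesis list was -0.366 here and -0.381 in ARP1, and that of the NRF2 and heme list was -0.247 and -0.189. For the steroid and xenobiotic enzymes the medians were 0.629 here and 0.163 in ARP1, and for the glucocorticoid-induced genes 0.284 and 0.512. HMOX1 stood at -1.59 here and -1.16 in ARP1, and MARS2 at -0.80 and -0.76, with differences of -0.43 ± 0.24 (adjusted p = 0.491) and -0.04 ± 0.12 (adjusted p = 0.93). BCL2L11 stood at 0.00 here and 1.05 in ARP1, a difference that did not pass (-1.05 ± 0.21, adjusted p = 0.0732). Its levels were 5.47 to 6.34 here, not far above the lower end of the scale, and 7.41 to 8.97 in ARP1.

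**Figure D5:**
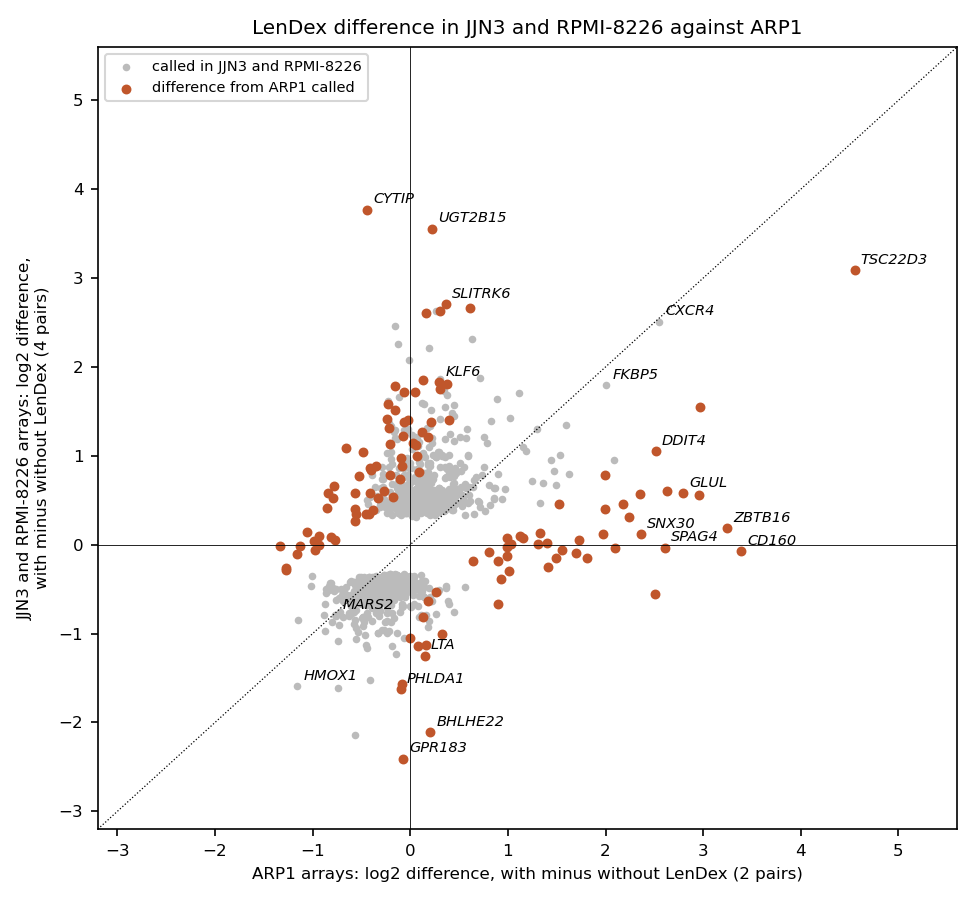
Log2 LenDex differences on the RPMI-8226 and JJN3 arrays (y axis, mean of 4 pairs) against those on the ARP1 arrays (x axis, mean of 2 pairs); grey points are genes called on the RPMI-8226 and JJN3 arrays, orange points the 118 genes whose effect differed from that in ARP1, and the dotted line marks equal values. CYTIP and UGT2B15 lie high near the vertical axis, CD160 and ZBTB16 far right near the horizontal axis, and CXCR4 and FKBP5 near the dotted line.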

How the data were processed

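The authors deposited RMA values on a log2 scale, as their range shows. The submitters' processing notes name Affymetrix Expression Console 1.1. Joint normalisation of the 12 arrays is not given in the sources used here, and a change of total RNA per cell does not show after RMA. Array medians lay between 5.304 and 5.375. The number of arrays limits the precision. Of 49386 probe sets 93 were controls, 45253 had 1 gene symbol (45172 matched by gene identifier to RefSeq GRCh38.p14), 1327 several and 2713 none. Each of 18239 genes was represented by the single-symbol probe set whose mean over the 8 arrays was highest. Of the 969 called genes 709 had several probe sets tested, for 263 another was called the same way and for 0 the other way. Tested singly, 1 of 2 probe sets was called for CYTIP, BHLHE22, LTA, IKZF2, NAPSB and VCAM1, among others. For PER1 it was 1 of 3.

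Genes were fitted in limma 3.58.1 (R 4.3.3) with LenDex and the 4 pairs as terms, two-sided moderated tests and Benjamini-Hochberg adjustment over 13103 genes, leaving 3 residual degrees of freedom. Differences from ARP1 used 12 arrays and 6 pairs (4 residual degrees of freedom), and those with CPI203 or between lines used the 8 arrays (2). The pairing comes from the cell line label, and deviations from group means correlated within pairs at 0.706 to 0.757. Each group held 1 array of each label, so these values describe the difference between the labels and do not test the pairing of cultures. On simulated data with 200 of 13103 genes changed, the LenDex test recovered 36%, 95% and 99.5% of changes by 1.5, 2 and 3 times, and the ARP1 difference 0%, 60.5% and 95.5%. Alternatives were other level filters, probe set rules, variance models, scaling, blocks and arrays in the fit, and pairs left out.

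The arrays, gene lists and tests were chosen with earlier results of these data known. The genes named are, among those called and alike in sign in all 4 pairs, the 15 with the highest and the 15 with the lowest difference, a panel of 20 genes, up to 4 called members of each list in each direction by p (or the 2 with the smallest p), and the 6 with the smallest p in each test of a difference. Markers come from the marker lists, of which KLF1, HBG1, HBZ, KRT18, CD3D and JCHAIN were singled out after their values were seen.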

Additional observations from a re-analysis of the deposited data

Results flagged for a closer look

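Of 44 leading and panel genes, 5 had 1 of their 4 pair differences far from the other 3, where chance alone marks about 1 gene in 20. HMOX1 was at -2.17 in the RPMI-8226 pair without CPI203, against -1.46, -1.38 and -1.34 in the others. IKZF3 was at 0.16 in that same pair, against -0.41, -0.40 and -0.31 in the others. PER1 was at 2.65 in the JJN3 pair without CPI203, which holds the JJN3 control array, against 1.03, 1.24 and 1.28, and NR3C1 was at -0.48 there, against -0.32, -0.32 and -0.29. PHLDA1 was at -1.35 in that pair, against -1.74, -1.70 and -1.70. The part of the JJN3 control array in these values was not tested.

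For 14 of the 44 genes the LenDex effect on the RPMI-8226 and JJN3 arrays differed from that on the ARP1 arrays in limma. The effect was higher than in ARP1 by 4.21 for CYTIP, 3.34 for UGT2B15, 2.44 for AKR1C2, 2.34 for SLITRK6, 2.33 for UGT2B17 and 2.05 for UGT2B7. These 6 genes rose on the RPMI-8226 and JJN3 arrays. The difference was -2.34 for GPR183, -2.31 for BHLHE22, -1.52 for PHLDA1, -1.48 for ACKR3, -1.40 for LTA, -1.29 for TLR10 and -1.22 for IL4I1, all of which fell on the RPMI-8226 and JJN3 arrays. Each of these 7 genes lay under 6 on all 4 ARP1 arrays, from 4.42 to 5.29 for LTA and from 5.3 to 5.69 for IL4I1, so a fall in ARP1 could hardly be seen and the difference does not show another response. For TSC22D3, which rose in each line, it was -1.46, with lower levels in ARP1 both with and without LenDex.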

How the results depend on the processing

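The 969 called genes became 867 with no level filter, 1398 at a mean log2 level of 6 or more, 1451 probe sets when tested singly, 976 with probe sets chosen over all 12 arrays, 1039 after cyclic loess (57.7% higher, against 56.4%), 1146 with line and CPI203 as additive terms and 1381 in a fit of all 12 arrays. They became 1833 with a variance trend and robust fit, of which 933 were among the 969, 71 with no replicate block of pairs, 406 with both lines averaged, 234 on the JJN3 arrays alone and 17 on the RPMI-8226 arrays alone, where fewer arrays enter, and 213 to 376 when 1 pair was left out. The 118 differences from ARP1 became 116 at the higher level filter, 351 with the variance trend, 47 with both lines averaged and 9 to 69 when 1 pair was left out. Differences with CPI203 and between lines were 0 except with the variance trend, which gave 172 and 385 on 2 residual degrees of freedom. The cause was not tested. A fit of all 12 arrays gave ARP1 terms of its own, so it had to repeat the same 0 and is no separate check. The direction of the 90 called named genes could hardly change in these settings, since all 4 pairs shared it. Of them 90 stayed called with the variance trend, 87 after cyclic loess (ACACA, ATF5 and NR3C1 were lost, at adjusted p = 0.0519, 0.0514 and 0.0648), 89 with all 12 arrays (IL4R was lost, at 0.0629), 23 without the pair block, 44 on the JJN3 arrays alone, 11 on the RPMI-8226 arrays alone and 49 to 63 when 1 pair was left out. Among 11 panel genes that were not called, CDKN1A and MYC passed with the variance trend (adjusted p = 0.0035 and 0.00806), and 4 near 0 changed sign. BCL2L11 was at -0.035 after cyclic loess, -0.179 on the RPMI-8226 arrays alone and -0.137 to 0.076 with 1 pair left out. CD38 was at 0.144 on the JJN3 arrays alone and -0.24 to 0.009 with 1 pair left out, CRBN at -0.092 to 0.151, and IRF4 at -0.067 on the JJN3 arrays alone and 0 to 0.101 with 1 pair left out. List counts without a pair or with lines averaged were chosen after seeing the data. Genes near a level of 5 in either group, such as ZBTB16 on the 8 arrays or GPR183 in ARP1, are limited by the array background.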
